A study of Mus musculus with 7 samples.

Results

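The 9 genes described here, of 32285 genes in the files, encode the interleukin-6 receptor chains Il6ra and Il6st, the kinase Jak2, the transcription factor Stat3, the feedback inhibitors Socs1, Socs2, Socs3 and Cish, and the atypical IκB protein Bcl3. They were taken by symbol, and they were chosen by measured values: Socs3 had been picked out because its RNA was higher in stem-like cells of the knockout libraries, and the list was drawn up with such results known. The values of that contrast in stem-gated cells are therefore a description with no test.

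The cells were mouse bone marrow cells sorted by FACS as LSK, that is, without lineage markers and with surface Sca-1 and cKit, a gate that holds blood stem cells and early multipotent progenitors. Single-cell 3′ RNA libraries were made from 129S1/C57Bl/6 mice with genotype B4-/-, a full knockout of the galactosyltransferase gene B4galt1 (label KO, 3 libraries), and from 129S1/C57Bl/6 mice with no such allele named (label WT, 4 libraries). A full knockout is not limited to blood cells. Ages and the number of animals per library are not given in the sources used here, so the p-values measure the spread between libraries, which may be technical.

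Cytokines such as interleukin-6 and growth hormone bind receptors that carry JAK kinases. The kinases phosphorylate the receptor and the STAT factors, which enter the nucleus and switch on target genes. Among those targets are the SOCS genes and Cish, whose proteins bind the receptor or the kinase and end the signal, so their RNA is widely used as a readout of recent cytokine signalling.

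STAT dimers bind the palindrome TTCNNNGAA, which reads the same on both strands. It was searched in the RefSeq promoters of build GRCm38.p6 (250 bases before to 50 after the start site), where 8 of the 9 genes had an entry. The motif was present in 2 of the 8, Socs3 and Cish, and in 2726 of all 32851 promoters, 8.30%. Both are printed 5′ to 3′ on the gene's strand with the motif in capitals, since these feedback genes are the ones on which the results turn. The Socs3 promoter is chr11:117969317-117969616 on the minus strand, and its match begins 154 bases before the start site.
Socs3: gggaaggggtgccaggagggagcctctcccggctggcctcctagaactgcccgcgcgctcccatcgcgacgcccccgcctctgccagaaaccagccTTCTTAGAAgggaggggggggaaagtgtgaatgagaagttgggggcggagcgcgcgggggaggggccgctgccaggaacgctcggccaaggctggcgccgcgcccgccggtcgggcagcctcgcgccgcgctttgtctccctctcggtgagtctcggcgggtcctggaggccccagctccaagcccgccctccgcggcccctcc
The Cish promoter is chr9:107296409-107296708 on the plus strand, and its matches begin at the start site and 11 bases after it.
Cish: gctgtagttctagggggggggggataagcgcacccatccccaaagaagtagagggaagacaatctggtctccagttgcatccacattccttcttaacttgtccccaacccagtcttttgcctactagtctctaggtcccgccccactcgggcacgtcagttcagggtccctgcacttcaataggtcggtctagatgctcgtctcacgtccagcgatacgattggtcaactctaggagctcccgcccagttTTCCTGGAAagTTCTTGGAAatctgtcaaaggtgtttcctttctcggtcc
Only 150 of all promoters, 0.457%, held 2 or more matches, as Cish does. A match describes these letters and is not evidence of binding.

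In GRCm38 (GENCODE), Socs3 (ENSMUSG00000053113) lies at chr11:117966079-117970047 and Cish (ENSMUSG00000032578) at chr9:107296026-107302784. Socs2 (ENSMUSG00000020027) lies at chr10:95385362-95417180. Cish, Stat3, Il6ra and Bcl3 overlap genes annotated on the opposite strand, Stat5a in the case of Stat3. Whether counting used strand is not given in the sources used here. It is therefore not known here whether reads of these 4 genes were kept apart from those of their overlapping partners.

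The libraries held 2616 to 9210 barcodes and 14970791 to 89747946 UMIs, of which 1172 to 8862 cells passed the cell filter. They fell into 2 sets by the opening 5 bases of their barcodes. List A holds KO replicates 1 and 2 and WT replicates 1, 2 and 3, and list B holds KO replicate 3 and WT replicate 4. Ribosomal genes took 30.0% and 30.2% of the UMIs of the list B libraries and 13.7 to 20.8% of those of list A. The pair in list B shared 68 cell barcodes, against at most 2 in any other pair. That pair held more cells (6855 and 8862, against 1172 to 3072 in list A) and fewer opening sequences (399, against 614 to 644). The number of shared barcodes expected by chance was not computed. B4galt1 RNA was present in every library, at 51.2, 55.6 and 27.4 CPM (UMIs per 1000000 UMIs) in KO replicates 1 to 3 and at 56.4, 69.2, 56.7 and 34.8 in WT replicates 1 to 4. The 3′ counts thus do not check the genotype labels, and the part of the gene that was deleted is not given in the sources used here.

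Cells were placed in states by marker genes, none of them a member. The stem gate (10158 cells) used Hlf, Procr, Fgd5, Mecom, Mllt3, Ctnnal1 and Pdzk1ip1. The Flt3 gate (1254 cells) asked for Flt3 and at most 1 stem marker. The lymphoid gate (3067 cells) used Dntt, Il7r, Rag1, Rag2 and Ly6d, and the granule gate (3286 cells) Mpo, Elane, Prtn3, Ctsg and Ms4a3. Further gates were megakaryocyte (536 cells) and erythroid (220 cells). UMIs were summed per state and library. Levels are in CPM, UMIs per 1000000 UMIs of that state, and counts from the 3′ end compare 1 gene across samples rather than genes with each other. In stem-gated cells the sort genes Kit and Ly6a (Sca-1) stood at 167 to 393 and 20.6 to 79.0 CPM. The megakaryocyte and erythroid gates reached 20 cells only in KO replicate 3 and WT replicate 4, so they are described without a test. Granule-gated cells made up 32.9, 38.4 and 15.9% of the kept cells in the KO libraries and 8.28, 5.20, 2.80 and 3.60% in the WT libraries.

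The receptor chains were lower in stem-gated cells than in Flt3-gated, lymphoid-gated and granule-gated cells. Il6ra, the chain that binds interleukin-6, stood in stem-gated cells at 28.0, 50.5 and 13.0 CPM in KO replicates 1 to 3 and at 32.9, 37.9, 36.8 and 17.5 in WT replicates 1 to 4. In granule-gated cells it stood at 53.9, 95.0 and 29.6 in the KO libraries and at 69.4, 77.1, 60.3 and 36.3 in the WT libraries. The lowest value of each label came from list B in both states, and every library was higher in the granule gate than in its own stem gate. The log2 fold change from stem-gated to granule-gated cells was 1.17 (SE 0.09, adjusted p by edgeR = 9.64e-14, n = 7 libraries), to Flt3-gated cells 0.98 (SE 0.11, adjusted p = 2.56e-08) and to lymphoid-gated cells 0.83 (SE 0.09, adjusted p = 1.58e-09).

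Il6st, the signal-transducing chain gp130 that interleukin-6 shares with interleukin-11, oncostatin M and LIF, was also higher in these 3 gates. It stood in stem-gated cells at 25.3, 23.1 and 7.92 CPM in the KO libraries and at 17.3, 18.0, 17.1 and 8.85 in the WT libraries. In lymphoid-gated cells it stood at 76.8, 41.0 and 17.4 in the KO libraries and at 32.9, 34.0, 48.6 and 16.2 in the WT libraries. Here too list B was lowest, and all 7 libraries were higher in the lymphoid gate. The log2 fold change was 1.23 in lymphoid-gated cells (SE 0.14, adjusted p by edgeR = 2.08e-08) and 1.14 in granule-gated cells (SE 0.14, adjusted p = 4.78e-08). In Flt3-gated cells it was 0.77 (SE 0.19, adjusted p = 0.00377), higher in 6 of 7 libraries, and that call was lost when cells were thinned to 3000 UMIs (−0.10) and with looser gates (0.12, adjusted p = 0.899). In erythroid-gated cells of list B, Il6ra stood at between 0.07 and 0.147 times its stem-gated level and Il6st at between 0.341 and 0.362 times, with no test.

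Jak2, the kinase used by the erythropoietin and growth hormone receptors, went the other way. Its stem-gated level was 60.6, 58.9 and 23.8 CPM in the KO libraries and 55.4, 63.1, 54.9 and 25.7 in the WT libraries. The labels overlapped, and list B held the 2 lowest values. Jak2 was lower than in stem-gated cells in all 7 libraries in the Flt3 gate (log2 fold change −0.45, SE 0.11, adjusted p by edgeR = 0.00163), the lymphoid gate (−0.56, SE 0.08, adjusted p = 6.73e-07) and the granule gate (−0.66, SE 0.08, adjusted p = 8.68e-09). In the list B libraries the erythroid-gated level was 36.0 in KO replicate 3 and 33.7 in WT replicate 4, above the stem-gated level of both.

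Stat3, the factor that gp130 signalling activates, was at 192, 199 and 148 CPM in stem-gated cells of the KO libraries and at 144, 169, 148 and 126 in the WT libraries. It was lower in lymphoid-gated cells (log2 fold change −0.44, SE 0.08, adjusted p by edgeR = 1.30e-05) and in granule-gated cells (−0.61, SE 0.08, adjusted p = 1.17e-08), in 7 of 7 libraries each. In Flt3-gated cells the difference was −0.17 (SE 0.09, adjusted p = 0.174).

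Socs2 and Cish, feedback genes known as targets of Stat5 downstream of growth hormone, had the steepest falls of the 9 genes from the stem gate to the Flt3, lymphoid and granule gates. Socs2 stood in stem-gated cells at 17.0, 14.7 and 47.7 CPM in the KO libraries and at 15.3, 8.05, 16.9 and 23.1 in the WT libraries, and in granule-gated cells at 1.14, 1.74 and 2.60 in the KO libraries and at 0, 1.66, 1.31 and 1.28 in the WT libraries. List B was highest of its label in the stem gate, the opposite of the receptor chains, and no granule-gated library reached the lowest stem-gated one. The log2 fold change was −3.58 (SE 0.42, adjusted p by edgeR = 1.52e-07) in granule-gated cells, −2.50 (SE 0.51, adjusted p = 0.00116) in Flt3-gated cells and −1.25 (SE 0.33, adjusted p = 0.00500) in lymphoid-gated cells. The lymphoid fall was uneven: it was seen in 5 of 7 libraries, and without WT replicate 4 or within list A the call was lost. The Flt3 call was lost with looser gates (adjusted p = 0.0671).

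Cish stood in stem-gated cells at 14.4, 14.7 and 33.5 CPM in the KO libraries and at 10.1, 5.37, 11.0 and 15.1 in the WT libraries. In granule-gated cells it stood at 2.36, 2.86 and 4.68 in the KO libraries and at 2.55, 0.829, 6.55 and 3.20 in the WT libraries. Each library was lower in the granule gate than in its stem gate. Log2 fold changes were −2.21 in granule-gated (SE 0.19, adjusted p by edgeR = 1.09e-12), −1.51 in Flt3-gated (SE 0.24, adjusted p = 1.14e-05) and −1.10 in lymphoid-gated cells (SE 0.18, adjusted p = 2.72e-06). In the megakaryocyte gate of list B both genes stayed near their stem-gated level: Socs2 was at 39.5 and 30.6 and Cish at 28.4 and 14.8 in KO replicate 3 and WT replicate 4. In the cells of these 2 libraries set aside as MHC class II-high, Socs2 stood at 80.4 and 36.4 and Cish at 45.0 and 13.9. The Socs2 levels there were 1.69 and 1.57 times the stem-gated ones, with no test. Socs2 was the member most like Cish, with a Pearson correlation of 0.867 over 32 sums of states and libraries, centred within library. Among 9076 genes only Lgals8, at 0.868, was closer to Cish, and the nearest to Socs2 after Cish were Gprasp1 at 0.828 and Kcnk5 at 0.827. These correlations share libraries and are a description.

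Socs3, which binds gp130 and the G-CSF receptor and blocks the attached JAK, was spread differently from Socs2 and Cish. In stem-gated cells it stood at 55.9, 55.9 and 17.9 CPM in the KO libraries and at 13.5, 16.6, 13.6 and 8.14 in the WT libraries. In Flt3-gated cells it stood at 50.4, 39.2 and 19.1 in the KO libraries and at 13.5, 19.9, 14.1 and 8.10 in the WT libraries, close to the stem-gated level of each library. The log2 fold change between these gates was 0.01 (SE 0.16, adjusted p by edgeR = 0.984), and in lymphoid-gated cells it was −0.19 (SE 0.13, adjusted p = 0.258). Within list A alone, and without WT replicate 4, the lymphoid difference did pass the test as a fall, with log2 fold changes down to −0.53. Granule-gated cells were lower in all 7 libraries, at 21.0, 21.6 and 9.76 in the KO libraries and 5.61, 4.14, 3.93 and 4.48 in the WT libraries (log2 fold change −0.97, SE 0.14, adjusted p = 7.05e-08). Erythroid-gated cells held 0.901 and 0.962 CPM in KO replicate 3 and WT replicate 4.

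**Figure D1:**
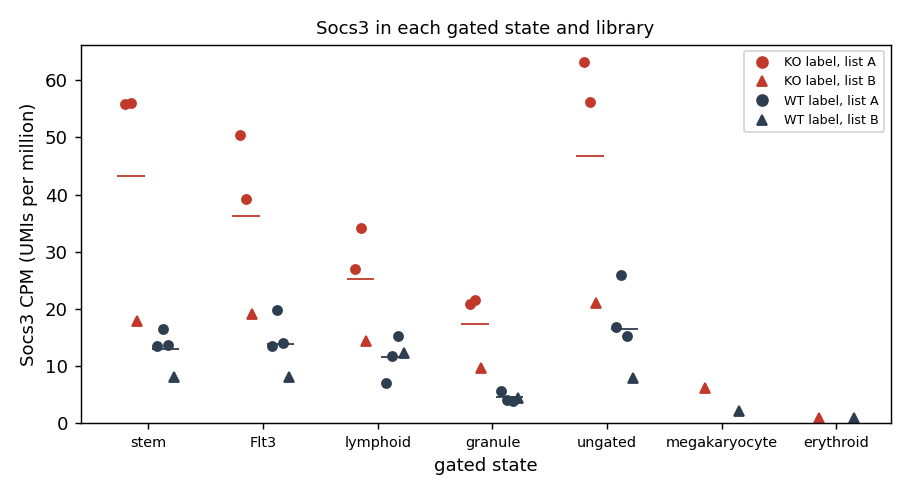
Socs3 in CPM (vertical axis) in each gated state (horizontal axis), 1 point per library, circles for barcode list A, triangles for list B, and a line at the mean of each label where it has more than 1 library. KO points lie above the WT points of the same barcode list in each state other than erythroid, where both are near 0.

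The genes whose pattern over states and libraries was most like that of Socs3 were Lrrc8d (Pearson correlation 0.900), Msrb3 (0.897), Chd3 (0.895), Tecpr1 (0.888) and Crebbp (0.888), over 32 sums. Among members Bcl3 (0.712) and Stat3 (0.693) were nearest, and Socs2 (0.112) and Cish (0.178) were far from it.

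Socs1, an inhibitor of JAK kinases best known from interferon signalling, was lower in granule-gated cells (log2 fold change −0.52, SE 0.16, adjusted p by edgeR = 0.00520) and did not pass the test in Flt3-gated (0.09, adjusted p = 0.854) or lymphoid-gated cells (0.30, adjusted p = 0.115). The granule call was lost under stricter and under looser gates. Its level depended on the barcode list: 11.5 to 18.7 CPM in stem-gated cells of list A, and 2.00 and 1.54 in KO replicate 3 and WT replicate 4. Bcl3, a nuclear IκB protein that pairs with NF-κB subunits and is a known Stat3 target, was likewise lower in granule-gated cells (−0.66, SE 0.18, adjusted p = 0.00152), a call lost with thinned cells. It did not pass in the Flt3 (0.23, adjusted p = 0.516) or lymphoid gate (−0.36, adjusted p = 0.121). The lymphoid difference did pass as a fall without KO replicate 3 (−0.55, adjusted p = 0.0292), with looser gates (−0.43, adjusted p = 0.0313) and within list A alone (−0.70, adjusted p = 0.00994).

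In counts, 2 members were higher and 3 lower in Flt3-gated than stem-gated cells, where 11.8% and 11.0% of all genes tested were called higher and lower. In lymphoid-gated cells 2 were higher and 4 lower, against 21.0% and 17.2% of all genes. In granule-gated cells 2 were higher and 7 lower, against 32.6% and 32.1%. The median log2 fold change of the 9 genes was 0.01 in Flt3-gated, −0.36 in lymphoid-gated and −0.66 in granule-gated cells, beside 0.01, 0.03 and −0.01 over all genes. All 9 passed the filter on low counts in these comparisons.

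**Figure D2:**
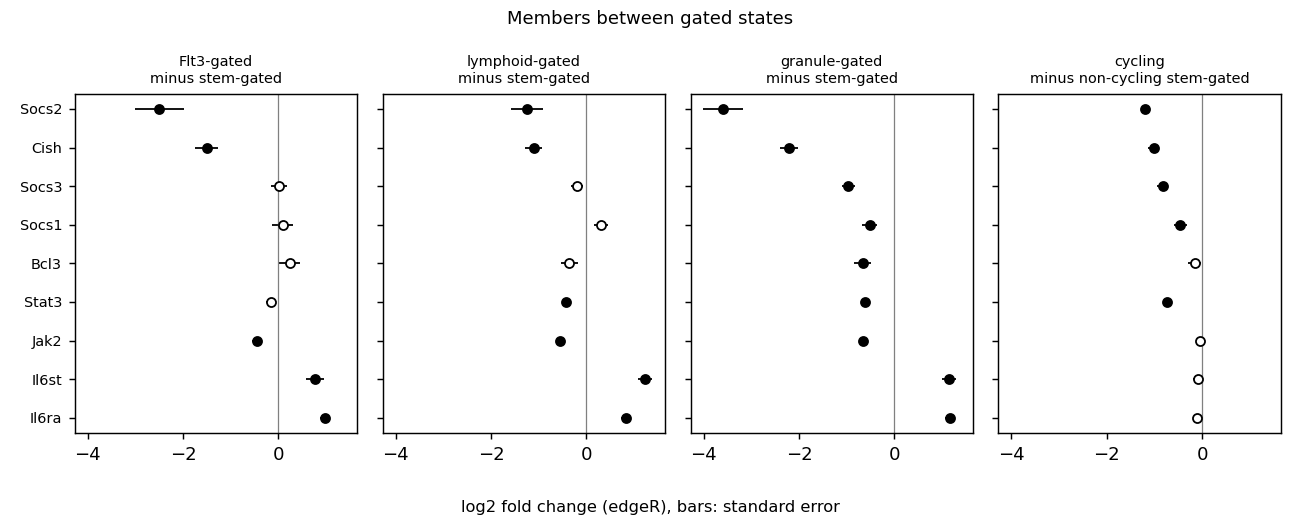
Log2 fold change (horizontal axis) of each of the 9 genes (vertical axis) in 4 comparisons of gated states, with bars for the standard error; filled points have an adjusted p under 0.05. Il6ra and Il6st lie above 0 and Socs2 and Cish below 0 in the 3 comparisons with stem-gated cells.

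Other pathway genes were counted from fixed lists. Of 17 further cytokine receptors tested, 3 were higher and 3 lower in Flt3-gated cells, 6 and 6 in lymphoid-gated cells, and 6 and 4 in granule-gated cells. The LIF receptor Lifr, a partner of gp130, was higher in lymphoid-gated cells (log2 fold change 3.25, SE 0.32, adjusted p by edgeR = 3.93e-11), while the growth hormone receptor Ghr (−2.98, SE 0.18, adjusted p = 3.71e-16) was lower there, as in Flt3-gated cells. In granule-gated cells the interleukin-3 receptor chains Il3ra (0.68) and Csf2rb (0.69) were higher and Ghr lower (−2.06). No other JAK or STAT gene of 9 rose in these gates, and 3, 4 and 6 fell in Flt3-gated, lymphoid-gated and granule-gated cells, among them Stat5a (−0.73, adjusted p = 1.47e-09) in lymphoid-gated and Stat4 (−1.13, adjusted p = 9.82e-10) in granule-gated cells. Of 15 other negative regulators, 1, 3 and 1 were higher and 0, 1 and 5 lower, and Socs5 was lower in granule-gated cells (−1.06, adjusted p = 1.60e-11).

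Stem-gated cells were also split by cell-cycle genes into cycling (3074 cells) and non-cycling cells (5991 cells). Socs1, Socs2, Socs3 and Cish were lower in the cycling cells. Socs2 stood in non-cycling cells at 25.2, 23.1 and 62.0 CPM in the KO libraries and at 20.9, 12.5, 24.4 and 34.7 in the WT libraries, and in cycling cells at 10.4, 7.55 and 30.7 in the KO libraries and at 13.5, 5.37, 8.86 and 12.1 in the WT libraries. All 7 libraries were lower when cycling, to between 0.327 and 0.645 times (log2 fold change −1.20, SE 0.09, adjusted p by edgeR = 3.16e-13). Cish fell by 1.02 on the log2 scale (SE 0.11, adjusted p = 3.57e-10), Socs3 fell by 0.83 (SE 0.11, adjusted p = 4.61e-07), Stat3 fell by 0.73 (SE 0.05, adjusted p = 7.70e-14), each in 7 of 7 libraries, and Socs1 fell by 0.46 (SE 0.14, adjusted p = 0.00561) in 6 of 7.

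Il6ra (−0.12, adjusted p = 0.240), Il6st (−0.09, adjusted p = 0.456), Jak2 (−0.05, adjusted p = 0.517) and Bcl3 (−0.15, adjusted p = 0.354) did not pass the test. The 5 members lower in cycling cells stand beside 29.6% of all genes called lower and 27.8% called higher. Among 15 other negative regulators, 4 were lower, 1 was higher and 10 were not called. Among 9 further JAK and STAT genes 6 were lower and 0 higher, and among 16 further receptors tested 10 were lower and 1 higher. Of 12 STAT target genes tested 10 were lower, led by the kinase gene Pim1 (log2 fold change −1.06, SE 0.05, adjusted p by edgeR = 4.24e-19), and of 16 immediate early genes 14 were lower and 1 higher. Cycling cells were deeper, with median UMIs of 9463 to 16228 per library against 4688 to 7979. When cells were thinned to 3000 UMIs, Socs3 no longer passed (adjusted p = 0.173), and Cish and Socs1 did not pass the filter on low counts. The Socs1 call was also lost with stricter gates.

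**Figure D3:**
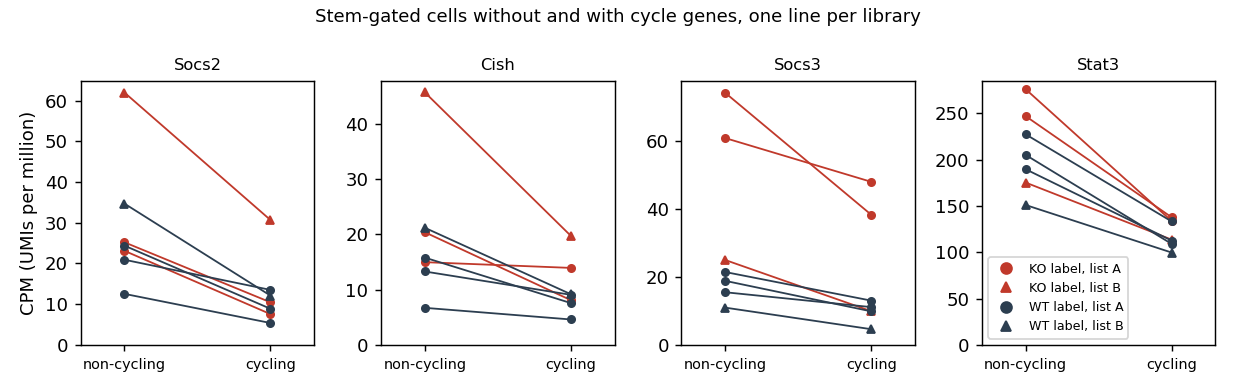
Level in CPM (vertical axes, 1 panel per gene) of Socs2, Cish, Socs3 and Stat3 in non-cycling and cycling stem-gated cells, 1 line per library, coloured by label with triangles for barcode list B. Every line falls from left to right.

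Between the labels, Socs3 was higher in the KO libraries of each barcode list in the stem, Flt3, lymphoid and granule gates. The same held for 5.18, 4.72, 6.03 and 4.55% of all genes tested in these gates, in that order. For list A by itself, KO above WT held for 9.11, 8.56, 10.2 and 8.0% of them. In stem-gated cells, where this contrast chose the gene, the KO to WT ratio was 3.84 in list A and 2.20 in list B. It was 3.63 and 2.28 in the non-cycling and 3.81 and 2.15 in the cycling part. The shares of cells with a Socs3 UMI are given as a description; their intervals cover counting error within 1 library and are no test of the labels. Thinned to 3000 UMIs per cell, 15.5% (exact 95% interval 13.3 to 17.9) and 16.8% (13.5 to 20.4) of stem-gated cells of KO replicates 1 and 2 had a Socs3 UMI, against 4.33, 4.65 and 4.70% in WT replicates 1 to 3. In list B the thinned shares were 4.37% (3.62 to 5.23) in KO replicate 3 and 2.52% (2.04 to 3.07) in WT replicate 4. Unthinned shares were 31.4, 27.3 and 13.1% in the KO libraries and 9.85, 12.2, 12.1 and 6.51% in the WT libraries, at median depths of 5952 to 10053 UMIs. Thinning left out 8 to 63 cells per library. In erythroid-gated cells of list B, where Socs3 was lowest, 0 of 76 thinned cells of KO replicate 3 had a Socs3 UMI (exact 95% interval up to 4.74%). The thinned share in WT replicate 4 was 0.769%. Unthinned, the shares were 1.32% in KO replicate 3 and 2.27% in WT replicate 4, at median depths of 11988 and 22310 UMIs. List A had too few erythroid-gated cells for such a background share.

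The label difference was tested in the gates that did not choose the gene, although these cells come from the same libraries and are not independent of that choice. In Flt3-gated cells the KO libraries held 73, 19 and 50 Socs3 UMIs and the WT libraries 8, 6, 8 and 41. In list A the KO levels (39.2 or more) lay above the WT levels (19.9 or less), and in list B, with 1 library per label, they were 19.1 and 8.10 CPM. Across all 7 libraries the labels overlapped, since KO replicate 3 lay below WT replicate 2. The log2 fold change was 1.44 (SE 0.27, adjusted p by edgeR = 0.0131). Over all genes 0.115% were called higher and 0.0767% lower. Socs3 reached the level that the filter on low counts asks for, 16.9 CPM, in 3 of 3 KO libraries and 1 of 4 WT libraries. It thus entered the test mainly through the KO libraries, and its p-value does not stand as independent support. With no gene filter the log2 fold change was 1.45, from the same counts. That setting called 45 genes higher and 29 lower of 18572, against 9 and 6 of 7825. Socs2, Cish and Bcl3 did not pass that filter. The call was lost in 8 of 16 alternatives, among them those without KO replicate 1 or 3, without WT replicate 1, 3 or 4, within list A alone and without the barcode list in the model, at log2 fold changes from 1.17 to 1.62 over all 16.

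In granule-gated cells the Socs3 log2 fold change was 1.76 (SE 0.26, adjusted p by edgeR = 0.0123), with 480, 211 and 173 UMIs in the KO libraries and 11, 5, 3 and 21 in the WT libraries. The lowest KO level, 9.76 CPM, lay above the highest WT level, 5.61 CPM. Over all genes 0.0257% were called higher and 0.0172% lower. The other 7 members tested were not called, and Socs2 did not pass the filter. The call was lost without WT replicate 1, 2 or 3, with thinned cells and without the barcode list in the model, and the log2 fold change ran from 1.37 with looser gates to 4.23 with stricter gates. The WT libraries held 42 to 319 such cells against 662 to 1087 in the KO libraries, and the neutrophil markers Ngp, Camp, Ltf and Lcn2 summed to 10.1 to 53.0 CPM in the KO libraries of list A against 6.63 to 11.8 in its WT libraries, and to 2.71 against 4.69 in list B. Their part in the result was not tested.

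In lymphoid-gated cells Socs3 was at 27.0, 34.2 and 14.5 CPM in the KO libraries and at 7.10, 11.7, 15.3 and 12.3 in the WT libraries. KO replicate 3 lay within the WT range, and the difference (log2 fold change 0.94, SE 0.27, adjusted p by edgeR = 0.384) did not pass. None of the 9 members was called there by edgeR or by DESeq2, against 0.171% of all genes called higher and 0.0902% lower; Socs3, Bcl3 and Il6ra had an unadjusted p under 0.05 (0.00403, 0.0176 and 0.0228). Whether the label difference of Socs3 differed between gates was not tested.

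Bcl3 was the other member above WT in the KO libraries of both lists in all 4 of these gates. The shares of all genes given above are for each gate by itself, and a share over all 4 gates together was not computed. In the Flt3 gate Bcl3 did not pass the filter on low counts. In the lymphoid gate Bcl3 had a UMI in only 8 of 120 cells of KO replicate 2. The lowest KO level of list A lay only just above its highest WT level in the Flt3 gate (WT 15.2 CPM) and the lymphoid gate (WT 7.51 CPM). Its stem-gated level was 18.8, 16.3 and 5.39 CPM in the KO libraries and 11.6, 7.01, 8.77 and 2.91 in the WT libraries, a ratio of 1.93 in list A and 1.85 in list B. Across all 7 libraries the labels overlapped, since KO replicate 3 lay below WT replicates 1 to 3. The granule-gated log2 fold change was 1.70 (SE 0.37, adjusted p by edgeR = 0.279) and the lymphoid-gated one 0.99 (SE 0.37, adjusted p = 0.687). Il6st in Flt3-gated cells had a log2 fold change of 1.18 (SE 0.29, adjusted p = 0.109), which did pass in 6 of 17 alternatives, among them list A alone and the fits without KO replicate 3 or WT replicate 4. The members not named in this or the preceding comparisons by label had adjusted p-values of 0.776 or more in each gate tested.

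In stem-gated cells the other members had smaller label differences than Socs3, given as log2 fold changes with no test: Bcl3 0.94, Cish 0.87, Socs2 0.54, Socs1 0.47, Stat3 0.31, Il6st 0.27, Jak2 0.00 and Il6ra −0.07. Cish was 1.65 times higher in list A and 2.21 times in list B, and Socs2 was 1.18 and 2.06 times higher. Stat3 was 1.27 and 1.17 times higher. Il6st was 1.38 times higher in list A and stood at 0.895 times in list B.

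Immediate early genes, which cytokines and cell handling can both induce, were higher beside Socs3 in 1 barcode list and not in the other. The 16 immediate early genes summed to 5814 and 5754 CPM in stem-gated cells of KO replicates 1 and 2 against 3791 to 4424 in the WT libraries of list A. In list B the order was opposite, 2838 in KO replicate 3 and 3992 in WT replicate 4, while Socs3 was higher in KO replicate 3. By gene, 10 of 16 were above every WT library of list A in both KO libraries, and 1 of 16, Ier3, was also higher in list B; of all genes tested in stem-gated cells, 9.11% lay above WT in list A in this way. Fos had a KO to WT ratio of 1.85 in list A and 0.442 in list B, and Egr1 2.56 and 0.907. Of 13 STAT target genes, 8 were above WT in list A and 3 of them, Pim1, Osm and Vegfa, also in list B, while Icam1 stood there at 1.00 times. Pim1 was 1.63 and 2.21 times higher and Osm, itself a gp130 cytokine, 1.69 and 1.59 times, while Ccnd1 stood at 0.594 and 0.485 times.

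**Figure D4:**
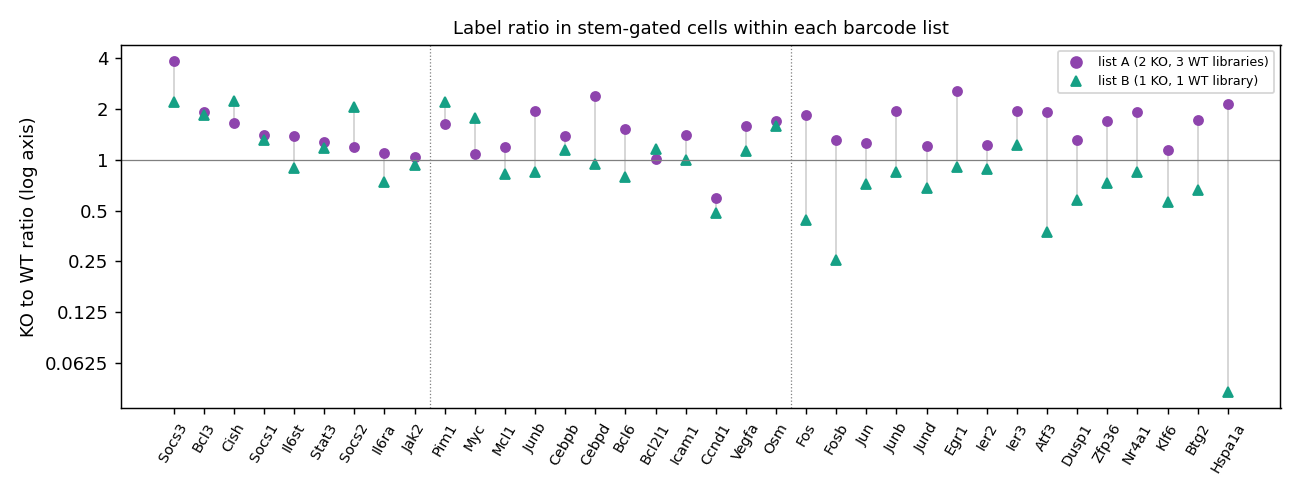
KO to WT ratio of the mean level in stem-gated cells (vertical log axis) within barcode list A (circles) and list B (triangles), for the 9 members, the STAT target genes and the immediate early genes, separated by dotted lines. Genes at 0 in a list (Timp1 and Hspa1b) are not drawn, and Junb stands in both groups. Socs3, Bcl3, Cish, Socs1, Socs2 and Stat3 lie above 1 in both lists, whereas most immediate early genes lie above 1 in list A and below 1 in list B.

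In stem-gated cells the macrophage markers summed to 0.272 to 2.04 CPM and the endothelial and stromal markers to 4.09 to 9.17. Haemoglobin genes summed to 75.5 to 130 in the KO and 20.9 to 41.1 in the WT libraries of list A, and to 95.1 against 284 in list B. In list B they summed to 78.9 against 78.5 in the cycling part and to 109 against 110 in the non-cycling part. The list B difference thus lay in stem-gated cells placed in neither part. The part of all these markers in the label difference was not tested.

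Among the other pathway genes, Il11ra1, the receptor chain that pairs interleukin-11 with gp130, was lower in the KO libraries in lymphoid-gated (log2 fold change −1.19, SE 0.20, adjusted p by edgeR = 0.0147) and granule-gated cells (−0.92, SE 0.16, adjusted p = 0.0379). The position of Il11ra1 relative to B4galt1 was not examined, and any part of the strain background in this difference was not tested. Ccnd1, the cyclin D1 gene, was lower in lymphoid-gated cells (−0.85, SE 0.17, adjusted p by edgeR = 0.0459). These were the calls by label among the further pathway genes on the lists of receptors, JAK and STAT genes, negative regulators, STAT targets, NF-κB genes and immediate early genes.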

How the data were processed

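The values are UMI counts per gene and cell, deposited by the authors as unnormalised matrices for 7 libraries. Per the labels' protocols the kit was a 10x Genomics 3′ kit; per the submitters' processing notes Cell Ranger 7.0.0, Seurat 4.4.0 and build mm10 were used. The gene and barcode lists were deposited beside the matrices. Cell types were rebuilt from markers, so they need not match the authors' names.

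Cells with at least 1000 UMIs, 500 genes and at most 10% mitochondrial UMIs were kept (median 8046 to 11084 UMIs). Marker gates set aside neutrophil, T or NK, B and MHC class II-high cells and cells in 2 or more lineage gates. The T or NK gate includes Nkg7 and took 1568 cells, many of them deep; without Nkg7 it took 66, an alternative added after seeing the data, as was the use of list A alone for states. Stem-gated cells had at least 3 of 7 markers detected; the lineage gates asked for 20 (granule) or 3 marker UMIs per 10000. Detection rises with depth, so thinned cells are an alternative. Doublets were not called; leaving out the top 5% of UMIs per library is an alternative.

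Counts were summed per state and library with at least 20 cells and fitted with edgeR 4.0.16 (R 4.3.3; TMM, filterByExpr, quasi-likelihood F test, Benjamini-Hochberg over all genes tested, adjusted p threshold 0.05), with library as the block between states and the barcode list as a covariate between labels. SE is the log2 fold change over the square root of F. DESeq2 1.42.0, other gates, filters and left-out libraries are alternatives. On simulated counts with a fixed spread between libraries, edgeR recovered 97% to 100% of 2-fold changes. The changes were put only into genes above a minimum mean count. Recovery for genes with few UMIs, as some members are, was not measured, so their lack of a call does not show absence of change. The genes named are the 9 members, up to 3 called genes per pathway list and direction with the smallest p, and the 5 genes most correlated with Socs3, Socs2 and Cish (log2 of CPM plus 1; mean of at least 10); others were chosen after their values were seen. The members and lists were chosen with earlier results of these data known.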

Additional observations from a re-analysis of the deposited data

Results flagged for a closer look

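In stem-gated cells, WT replicate 4 stood apart from the other 3 WT libraries for Il6st, at 8.85 CPM, and for Socs1, at 1.54. These are 2 of 36 groups of 4 libraries, and chance flags about 1 in 20. WT replicate 4 is the WT library of barcode list B.

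The KO to WT ratios of the barcode lists lay on opposite sides of 1 for 13 of 36 gene and state pairs. In 3 of them both KO libraries of list A lay on one side of all its WT libraries and the list B libraries lay the other way. The KO to WT ratio of Cish in lymphoid-gated cells was 0.537 in list A and 1.54 in list B. For Socs2 in the same gate it was 0.0969 and 2.52, and for Il6st in stem-gated cells it was 1.38 and 0.895. List B has 1 library per label, and these differences were not tested.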

How the results depend on the processing

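Of 122 alternatives for a count of members called, 100 kept it within 1.5 times. Flt3-gated against stem-gated cells had 5 called, 3 with looser gates and 3 with a replicate block; cycling against non-cycling cells had 5, 2 with thinned cells and 2 with a replicate block. By label, Flt3-gated cells had 1; no gene filter, stricter gates and a replicate block gave 2, and looser gates, thinned cells, a stricter cell filter (2000 UMIs, 5% mitochondrial) and no barcode list covariate gave 0. Socs3 did not pass the low-count filter there with looser gates or thinned cells. Lymphoid-gated cells had 0, 1 with no gene filter and 2 with a replicate block. Granule-gated cells had 1, 2 with no gene filter, and 0 with thinned cells or no barcode list covariate. Leaving out 1 library gave 0 to 1 in Flt3-gated and in granule-gated cells. The Socs3 difference in stem-gated cells, log2 fold change 1.68, was 1.94 in list A alone, 1.91 with a replicate block and 1.59 to 1.95 with 1 library left out. The replicate block takes replicate numbers as pairs. In list A the deviations of KO and WT libraries correlated at 0.40 and 0.57 for numbers 1 and 2. Number 3 crosses the lists. List A has only 2 KO libraries, whose deviations mirror each other (−0.40 and −0.57 across the numbers). These correlations therefore cannot decide whether equal numbers mark paired samples. The causes were not tested.

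Of 1332 log2 fold changes of single members, 51 were counted as changed in sign, all of them in the comparisons with a test. Il6st in Flt3-gated against stem-gated cells was the 1 that had been called (0.77, and −0.10 with thinned cells). The others were uncalled. The label differences with no test, in stem-gated and in all kept cells, are among the 1332. They were compared by size of shift, where 30 moved, and their sign changes were not counted. Socs3 in Flt3-gated against stem-gated cells (0.0094) was −0.015 with no gene filter, −0.12 with stricter gates, −0.072 with thinned cells, −0.041 with the stricter cell filter, −0.0083 with top UMIs left out, −0.046 without Nkg7, −0.047 in list A and −0.076 to 0.076 with 1 library left out; Socs1 there was −0.016 with the stricter cell filter. With stricter gates, the cycling difference was 0.016 for Il6ra and 0.0051 for Il6st. By label in lymphoid-gated cells, Cish was 0.039 with stricter gates, 0.47 with looser gates, 0.018 with no barcode list covariate and −0.92 to 0.24 with 1 library left out. Socs1 was −0.049 with stricter and −0.053 with looser gates, −0.097 with the stricter cell filter, −0.0083 with top UMIs left out, −0.082 with no barcode list covariate and −0.16 to 0.16 with 1 library left out. Jak2 was −0.0051 with looser gates, −0.0016 with thinned cells, −0.019 with the stricter cell filter and −0.15 to 0.24 with 1 library left out, and Socs2 was −3.08 to 0.21. By label in granule-gated cells, Il6ra was 0.024 with no gene filter, 0.15 with looser gates, 0.024 without Nkg7, 0.092 in list A and −0.29 to 0.13 with 1 library left out. Il6st was −0.0076 with stricter gates, Jak2 was 0.013 with a replicate block and −0.22 to 0.028 with 1 library left out, Socs1 was −0.039 with stricter gates and −0.057 with top UMIs left out, and Cish was −0.14 to 0.52 with 1 library left out. Socs1, Socs2, Socs3, Cish, Bcl3 and Il6st had 10 or fewer UMIs in some sums, which limits what their label differences can show.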
